A study of Mus musculus with 8 samples.

Results

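The genes that encode the proteasome and its partners were followed in white adipocytes with and without YAP and TAZ, on normal chow (NC) and on a high-fat diet (HFD). Members were the rows annotated as protein_coding whose symbol begins with Psm, a letter from a to g and a digit. There were 50 of them among the 30387 rows of the table. A further 3 rows carried such symbols but were annotated as pseudogenes and were left out, since 53 rows matched by symbol alone. Of the 50, the subunits Psmb8, Psmb9, Psmb10, Psme1 and Psme2 belong to the immunoproteasome, and the other 45 were the set they were compared with. Psmc3ip is a member by symbol and is not a proteasome subunit.

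The libraries were made from total RNA of primary adipocytes isolated from epididymal fat of mice. Ad-Yap/Taz-KO mice (KO) carried floxed alleles of both genes and Adipoq-Cre, a constitutive driver active in adipocytes, so that the loss preceded the diet. Wild-type (WT) littermates were the controls. Both genotypes received NC or HFD for 4 weeks from the age of 5 weeks, which made 4 groups (WT NC, KO NC, WT HFD and KO HFD) of 2 mice and 2 libraries each. That age comes from the series description and differs from the one in the methods. The labels name no animal for a library, so the p-values measure the spread between these libraries.

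The proteasome is the protease that degrades proteins tagged with ubiquitin. Its 20S core is a barrel of alpha and beta rings in which the beta subunits Psmb5, Psmb6 and Psmb7 cut peptide bonds, and the 19S cap recognises, unfolds and feeds the substrate. Cells exposed to interferon replace these catalytic subunits with Psmb8, Psmb9 and Psmb10, which gives the immunoproteasome that produces peptides for MHC class I, and leukocytes carry much of it without stimulation. Psme1 and Psme2 form the PA28 ring, a cap that is also induced by interferon.

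Promoter sequences are shown for Psmb8 and its constitutive counterpart Psmb5, for Psmb9, which neighbours Psmb8 in the MHC region, and for 2 subunits of the 19S cap, Psmc2 and Psmd14, whose differences were the largest in that cap in mice on HFD. The windows come from RefSeq on GRCm38.p6 and hold 250 bases before and 50 bases after the start of transcription, 5′ to 3′ on the gene's strand. Capitals mark matches on either strand to any of 5 short motifs: GGAATG (the TEAD element), TGACNNNGC (antioxidant response element), TTCNNNGAA (gamma interferon activated site), the interferon stimulated response element (GAAA, any 2 bases and GAAA again) and CCAAT, the box bound by NF-Y. The positions are chr17:34197945-34198244 (plus strand) for Psmb8, chr14:54617946-54618245 (minus) for Psmb5, chr17:34187281-34187580 (minus) for Psmb9, chr5:21785025-21785324 (plus) for Psmc2 and chr2:61711444-61711743 (plus) for Psmd14.
Psmb8: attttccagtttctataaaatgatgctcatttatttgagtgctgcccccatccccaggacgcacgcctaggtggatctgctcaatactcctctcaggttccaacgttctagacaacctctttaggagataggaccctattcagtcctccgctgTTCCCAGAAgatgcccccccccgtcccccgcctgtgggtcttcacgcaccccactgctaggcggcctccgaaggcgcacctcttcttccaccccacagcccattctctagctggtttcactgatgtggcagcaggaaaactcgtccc
Psmb5: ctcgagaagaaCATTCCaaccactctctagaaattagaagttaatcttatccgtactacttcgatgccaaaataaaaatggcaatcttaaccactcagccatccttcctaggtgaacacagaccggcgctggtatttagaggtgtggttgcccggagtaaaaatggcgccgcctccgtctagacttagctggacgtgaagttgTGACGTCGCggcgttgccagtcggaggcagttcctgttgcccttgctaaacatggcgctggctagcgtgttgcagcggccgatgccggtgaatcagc
Psmb9: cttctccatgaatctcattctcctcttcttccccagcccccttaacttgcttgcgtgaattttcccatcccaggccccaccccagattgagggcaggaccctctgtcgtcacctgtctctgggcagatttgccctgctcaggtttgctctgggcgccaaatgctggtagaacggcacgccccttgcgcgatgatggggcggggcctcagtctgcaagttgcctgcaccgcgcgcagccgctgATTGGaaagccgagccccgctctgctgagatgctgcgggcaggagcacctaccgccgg
Psmc2: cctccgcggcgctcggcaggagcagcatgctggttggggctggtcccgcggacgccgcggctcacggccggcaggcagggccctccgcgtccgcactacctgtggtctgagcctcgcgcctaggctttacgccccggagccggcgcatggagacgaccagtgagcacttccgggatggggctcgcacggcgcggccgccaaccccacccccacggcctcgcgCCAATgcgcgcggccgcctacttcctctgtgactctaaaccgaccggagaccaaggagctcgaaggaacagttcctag
Psmd14: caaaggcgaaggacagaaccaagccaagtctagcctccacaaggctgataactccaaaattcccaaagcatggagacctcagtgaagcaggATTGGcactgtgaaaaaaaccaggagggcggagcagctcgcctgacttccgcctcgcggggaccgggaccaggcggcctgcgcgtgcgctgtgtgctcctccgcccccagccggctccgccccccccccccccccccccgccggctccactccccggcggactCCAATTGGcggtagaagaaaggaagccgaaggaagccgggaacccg

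In the Psmb8 window the capitals are a TTCNNNGAA match whose first base lies at -97 from the start. The Psmb5 window held a GGAATG match on the reverse strand at -239 and a TGACNNNGC match at -47. Psmb9 and Psmc2 each had a CCAAT match, at -8 and -28. Psmd14 had 3 CCAAT matches, at -159, 5 and 8, of which the last 2 overlap on opposite strands. Psmc2 has a further window that held no match and is not shown. RefSeq windows were found for 42 of the 50 members. Over these 42, TTCNNNGAA occurred in 3 members (7.14%) against 9.55% of the 27025 genes with a window, the interferon stimulated response element in 5 (11.9%) against 3.99%, TGACNNNGC in 6 (14.3%) against 14.0%, GGAATG in 4 (9.52%) against 16.6% and CCAAT in 15 (35.7%) against 41.1%. The 5 with the interferon stimulated response element were Psmb3, Psmd4, Psmd9, Psme1 and Psmg4. These are letter matches and describe the windows only.

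The libraries rested on about 14.0 to 22.3 M reads counted on genes, estimated from how often each whole number occurs among the rounded values. The deposited values summed to 14.9 to 21.0 M per library, highest in both WT HFD libraries. Wwtr1, which encodes TAZ, lay at 1957 to 2707 normalized counts in the 4 KO libraries and at 4743 to 7121 in the 4 WT libraries, and Yap1 at 1549 to 2068 against 2333 to 2776. Between KO HFD and WT HFD, Wwtr1 was called lower (-1.56, adjusted p = 3.1e-05) and Yap1 was not called (-0.42, adjusted p = 0.059). On NC both were lower (-1.24 and -0.71, adjusted p = 0.00097 and 0.024), and with WT HFD counted as 1 averaged sample Yap1 was not called there (adjusted p = 0.075). The WT HFD libraries were closer to each other than the libraries of any other group, with an SD of the log2 difference of 0.152 over 5113 genes against 0.256 to 0.399, and no SD is given for them. The tests kept them as 2 samples, and the calls of the members are also given with WT HFD counted as 1 averaged sample. Adipocyte markers were high in every library, and macrophage markers were detected in each, with summed values of 10 markers between 2780 and 5722 in WT libraries and between 16809 and 32535 in KO libraries. Fewer cells of a type and less RNA per cell cannot be told apart in these bulk samples.

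The first comparison was that of KO with WT mice on HFD. Psmb8, the immunoproteasome counterpart of Psmb5, was higher in KO HFD adipocytes. Of the 17 members of the 19S cap, 10 were called lower with the scaling as deposited and none with libraries scaled to the same total. With the same total the ATPases of the cap still lay between -0.49 and -0.16, and Psmd8 (0.31) and Psmd11 (0.14) were positive. A gene was called where its adjusted p did not exceed 0.05 and its log2 fold change reached 0.59 in either direction. By this rule 2 of the 50 members rose, against 17.1% of the 18800 genes tested, and 15 fell, against 15.1% of all genes. All 50 members passed the filter on low values. The median log2 fold change of the 5 immunoproteasome subunits was 0.08, that of the other 45 was -0.48 and that of all genes was 0.09, and with libraries scaled to the same total these were 0.46, -0.10 and 0.47. Both KO HFD libraries lay below both WT HFD libraries in 29 members (58.0% of the 50, against 33.0% of all genes) and above them in 2 (4.0%, against 36.5%). Psmb9, Psmb10, Psme1 and Psme2 were not called in any comparison with the scaling as deposited and all 8 libraries.

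Psmb8 had 110 and 120 normalized counts in the WT HFD libraries, 382 and 311 in KO HFD, 293 and 224 in WT NC, and 372 and 318 in KO NC. The WT HFD libraries thus lay below all 6 others, and KO HFD (346.5 ± 50.2, SD, n = 2) lay at the level of KO NC (345.0 ± 38.2, SD, n = 2). Its log2 fold change between KO HFD and WT HFD was 1.58 (SE 0.24, adjusted p = 0.00035 in limma's moderated test over all genes). With WT HFD counted as 1 averaged sample the adjusted p was 0.0066, and with libraries scaled to the same total the log2 fold change was 1.96 (adjusted p = 8.1e-05). The call held in each of 17 alternative settings, with log2 fold changes of 1.39 to 1.96 and adjusted p of 8.1e-05 to 0.0072, and it was the only one of the 17 calls among members in this comparison that did. Psmb8 lies on chromosome 17 at 34197721 to 34201454 in GRCm38 and shares 14.7% of its exon bases with the antisense gene Gm20496, which had 0 to 8 normalized counts.

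Psmb9 and Psmb10, the other catalytic subunits of the immunoproteasome, were not called. Psmb9 had 97 and 118 normalized counts in WT HFD and 183 and 107 in KO HFD, so that the groups overlapped (log2 fold change 0.38, SE 0.31, adjusted p = 0.37). Psmb10 had 203 and 268 in WT HFD and 257 and 236 in KO HFD (0.08, SE 0.26, adjusted p = 0.84). Psmb9 overlaps Tap1, a peptide transporter gene on the opposite strand, over 5.79% of its exon bases. Tap1 had 456 to 799 normalized counts in the 8 libraries. The methods of the paper state that reads overlapping several genes were left out. Without a stated strand setting of the counting it is not known whether the reads of the shared bases were dropped or assigned by strand.

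The subunits of PA28 had negative values. Psme1 had 2170 and 2244 normalized counts in WT HFD and 1543 and 1479 in KO HFD, with no overlap. Its log2 fold change of -0.55 (SE 0.15, adjusted p = 0.016) stayed under the fold limit. Psme2 had 779 and 699 in WT HFD and 731 and 515 in KO HFD, which overlapped (-0.27, SE 0.19, adjusted p = 0.31, and 0.12 with libraries scaled to the same total).

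**Figure D1:**
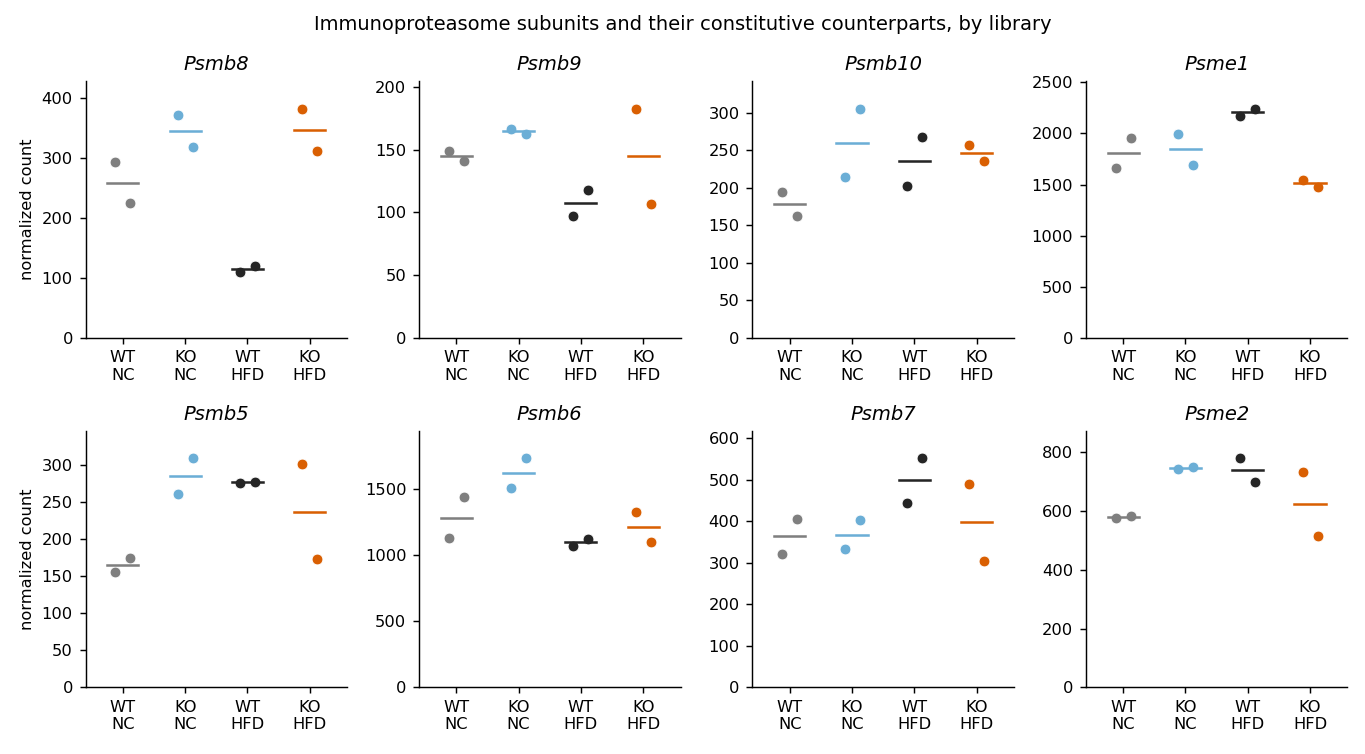
Normalized counts (vertical axes, starting at 0) of the immunoproteasome subunits Psmb8, Psmb9, Psmb10, Psme1 and Psme2 and of the constitutive catalytic subunits Psmb5, Psmb6 and Psmb7 in the 4 groups; each point is a library and each bar the mean of 2. Psmb8 lies at 110 and 120 in WT HFD and at 224 to 382 in the other 6 libraries, whereas Psme1 is highest in WT HFD, at 2170 and 2244.

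Macrophage and leukocyte markers differed in the same direction as Psmb8 between KO HFD and WT HFD. The summed macrophage markers were 2780 and 2919 in WT HFD and 32535 and 30904 in KO HFD, and 9 of the 10 rose (17.1% of all genes did). All 3 general leukocyte markers (Ptprc, Laptm5, Coro1a) rose, with sums of 430 and 264 against 6955 and 6387. T, B and NK cell markers summed to 45 and 41 against 140 and 292, and 2 of the 5 tested rose (0 in limma's test without the second KO HFD library). None of these lists had a marker at 0 in all libraries. Between WT NC and KO NC the macrophage sum went from 5722 and 5700 to 29869 and 16809, and there Psmb8 was not called (0.42, SE 0.24, adjusted p = 0.41). The part of these cells in the Psmb8 values was not tested.

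A ratio of an immunoproteasome subunit to its constitutive counterpart within a library does not depend on the scaling of the libraries. Psmb5 had 276 and 277 normalized counts in WT HFD, 301 and 173 in KO HFD, 155 and 174 in WT NC and 261 and 309 in KO NC. Psmb8 made up 28.5% and 30.2% of the Psmb8 plus Psmb5 sum in WT HFD and between 50.7% and 65.4% in the other 6 libraries. These shares are not corrected for transcript length, so they compare libraries and not the levels of the paired genes. Per kb of the principal transcript the WT NC mean of Psmb8 was 158.8 and that of Psmb5 183.0. On the log2 scale the ratio was 1.85 higher in KO HFD than in WT HFD, 1.90 lower in WT HFD than in WT NC (difference -1.90) and 0.36 lower in KO NC than in WT NC (difference -0.36). Over both diets, KO minus WT was 0.74 (exact permutation test within diets, two-sided p = 0.278, where 0.0556 is the smallest p that the 36 arrangements allow).

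Psmb9 made up 8.3% to 12.1% of the sum with Psmb6, and the log2 ratio differed by 0.04 between genotypes (exact permutation test, two-sided p = 0.833). Psmb10 made up 28.7% to 43.6% of the sum with Psmb7. Its log2 ratio was 0.47 higher in KO than in WT over both diets (exact permutation test, p = 0.0556, the smallest possible), with -0.73 and -1.31 in WT NC against -0.63 and -0.40 in KO NC, and -1.13 and -1.04 in WT HFD against -0.93 and -0.37 in KO HFD. The ranges of the genotypes did not overlap within either diet for Psmb10. These 3 ratios were the family tested, and none can pass 0.05 in this design before or after adjustment. Psmb7 overlaps Nek6 on the opposite strand over 11.8% of its exon bases, and Nek6 had 873 to 1647 normalized counts.

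**Figure D2:**
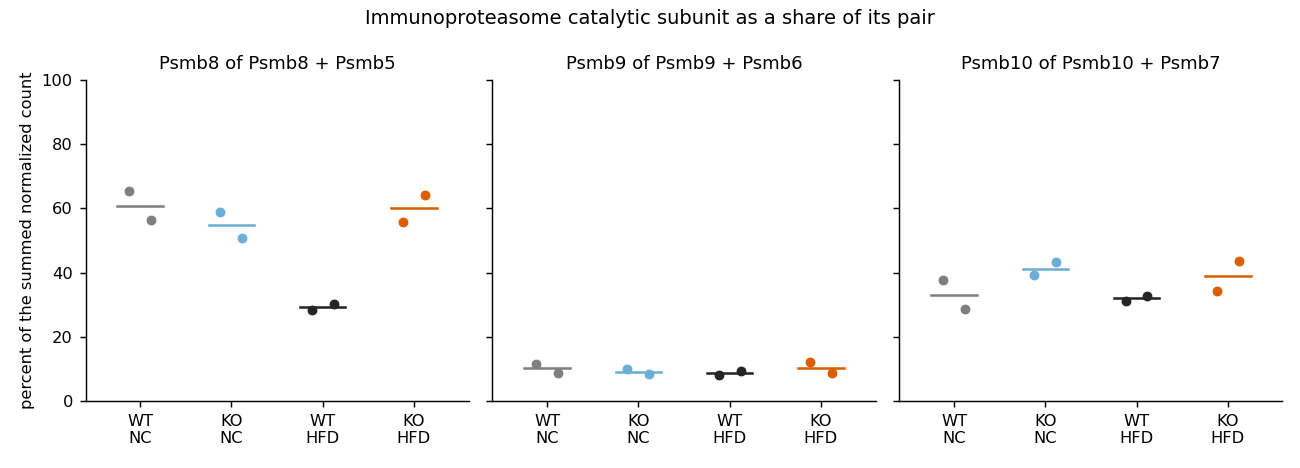
Share (percent, 0 to 100) of the summed normalized count of each catalytic pair that came from the immunoproteasome subunit, by group, without correction for transcript length. Points are libraries and bars the mean of 2. The Psmb8 share is 28.5% and 30.2% in WT HFD and at least 50.7% elsewhere, whereas the Psmb9 share stays between 8.3% and 12.1%.

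The 19S cap held 10 of the 15 members that fell in KO HFD. Of its 6 ATPases (Psmc1 to Psmc6), the ring that unfolds the substrate, 5 fell, and all 6 had negative log2 fold changes, between -0.88 and -0.54 as deposited and between -0.49 and -0.16 with the same total. Psmc2 had 1306 and 1176 normalized counts in WT HFD and 791 and 573 in KO HFD, against 625 and 686 in WT NC and 820 and 938 in KO NC. The WT HFD libraries lay above all others. Its log2 fold change of -0.88 (SE 0.19, adjusted p = 0.0033) was called in 16 of 17 alternatives, all except that with the same total. There it was -0.49 (adjusted p = 0.036 in limma's test), under the fold limit. Psmc1 (-0.87), Psmc5 (-0.70), Psmc4 (-0.67) and Psmc6 (-0.60) also fell.

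Among the 11 other 19S subunits that are members 5 fell, and all 11 had negative values as deposited, of which Psmd8 (0.31) and Psmd11 (0.14) were positive with the same total. Psmd14, the enzyme that removes ubiquitin chains from the substrate, had 1594 and 1824 normalized counts in WT HFD and 1043 and 792 in KO HFD, with 732 and 952 in WT NC and 1049 and 961 in KO NC. Here too the WT HFD libraries lay above all others. The log2 fold change was -0.91 (SE 0.19, adjusted p = 0.0028) and was called in 15 of 17 alternatives, the others being the same total (-0.52) and the fit without the second WT HFD library (-0.81, adjusted p = 0.051). With the same total the adjusted p of Psmd14 was 0.04 in limma's test, and only the fold limit was missed. Psmd1, a scaffold subunit of the cap, had 2851 and 3037 in WT HFD and 2147 and 1516 in KO HFD (-0.71, SE 0.18, adjusted p = 0.0091). Psmd6 (-0.66), Psmd13 (-0.65) and the ubiquitin receptor Psmd4 (-0.61) fell as well.

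In the 20S core the 7 alpha subunits all had negative values as deposited, with a median of -0.47, and Psma1, Psma3 and Psma7 were positive with the same total (0.13, 0.25 and 0.28). Psma5 fell (-0.76, SE 0.26, adjusted p = 0.041). Of the 4 structural beta subunits Psmb1 fell (-0.65, SE 0.16, adjusted p = 0.0067) and Psmb3 had a positive value of 0.32 (SE 0.33). None of the 3 constitutive catalytic subunits was called. Psmb6 had 1071 and 1121 normalized counts in WT HFD and 1325 and 1101 in KO HFD (0.14, SE 0.17), and Psmb7 had 445 and 552 against 490 and 305 (-0.36, SE 0.25).

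Regulators outside the core and cap were mixed. Psmf1, which encodes the proteasome-binding protein PI31, had 358 and 358 normalized counts in WT HFD and 234 and 99 in KO HFD, and fell (-1.23, SE 0.35, adjusted p = 0.017). Psme4, the large single-chain activator PA200, fell (-0.68, SE 0.17, adjusted p = 0.0077), and Psme3 did not pass (-0.43, SE 0.17, adjusted p = 0.074). Among the 7 assembly chaperones, Psmd5 fell (-0.82, SE 0.21, adjusted p = 0.0091) and Psmg3 rose (1.74, SE 0.60, adjusted p = 0.039). Psmg3 rested on low values, 18 and 6 in WT HFD against 30 and 47 in KO HFD, and was called in 5 of 16 alternatives.

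**Figure D3:**
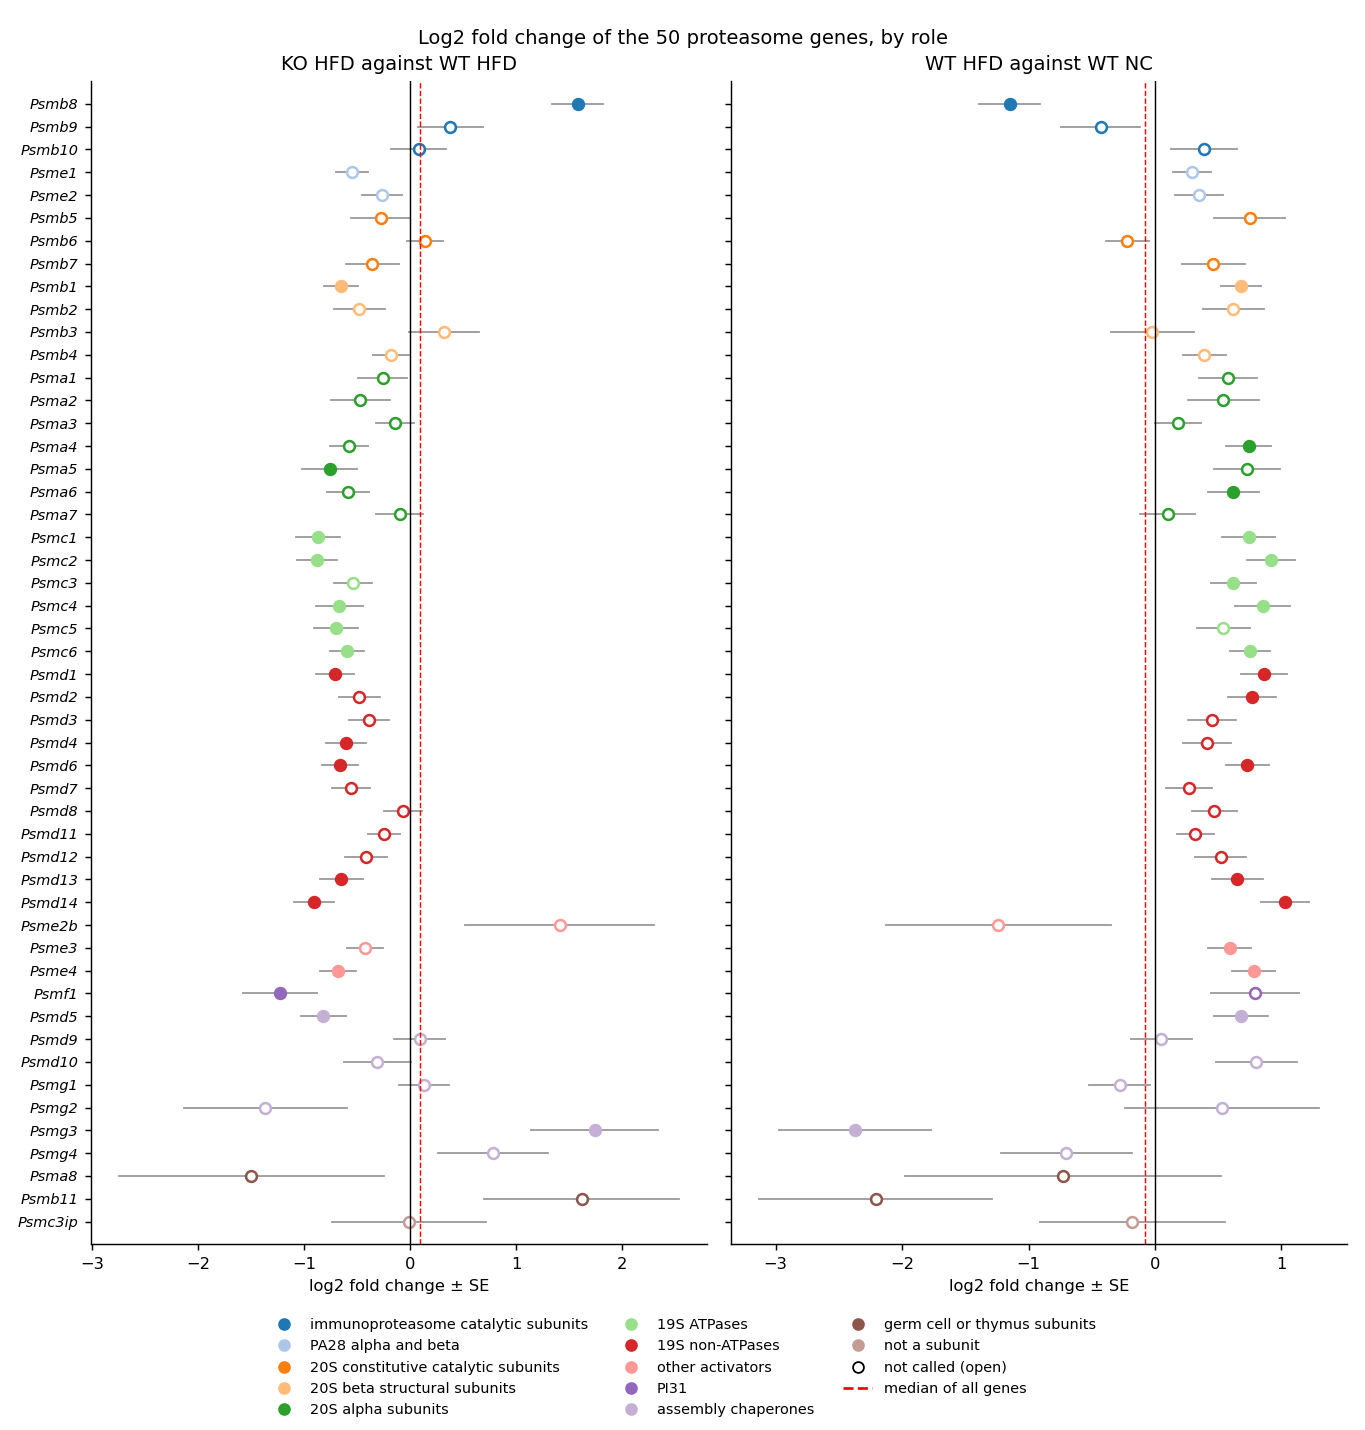
Log2 fold change with its standard error (horizontal axes) of each of the 50 members, grouped by role, for KO HFD against WT HFD and for WT HFD against WT NC; filled points were called and the dashed line is the median of all 18800 genes. The 19S ATPases lie between -0.88 and -0.54 on the left and between 0.54 and 0.92 on the right, and Psmb8 lies at 1.58 and -1.15; with libraries scaled to the same total the ATPases lie between -0.49 and -0.16 and between 0.13 and 0.51.

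The number of members called, and with another scaling the size of the decline, depended on the processing. With WT HFD counted as 1 averaged sample the member median stayed at -0.45, and Psmb8, Psmc2 and Psmd14 were the members called, 1 higher (10.2% of all genes) and 2 lower (8.14%). With quantile normalization the median was -0.34 and 7 members were called (27.4% of all genes). With libraries scaled to the same total, the median of all genes moved from 0.09 to 0.47, 28 members instead of 39 had negative values and none was called lower (7.27% of all genes were). An unadjusted p under 0.05 was found in 10 members, 4 of them with negative values, against 44.1% of all genes. Psmc2 (-0.49, adjusted p = 0.036), Psmd14 (-0.52, 0.04) and Psmb6 (0.53, 0.022) passed the adjusted p limit in limma's test and missed the fold limit. Psmb8 and Psmg3 rose (2 members, against 24.6% of all genes). Relative to the median of all genes the member median was -0.54 as deposited and -0.53 with the same total, a scaling that moves all genes of a library nearly alike. The member median and that of all genes lay closer with quantile normalization (-0.34 against -0.09) and at a mean of at least 50 (-0.48 against -0.14). They also lay closer without the second KO HFD library (-0.24 against 0.07), and further apart without the first (-0.64 against 0.14). The KO HFD libraries differed from each other, with the second lower by a median of 0.41 on the log2 scale over the 44 members with a mean of at least 50. Without the second, the member median was -0.24 and 5 members were called, 1 higher and 4 lower, against 19.6% of all genes. Without the first WT HFD library 5 were called (21.6% of all genes) and without the second 3 (19.3%).

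**Figure D4:**
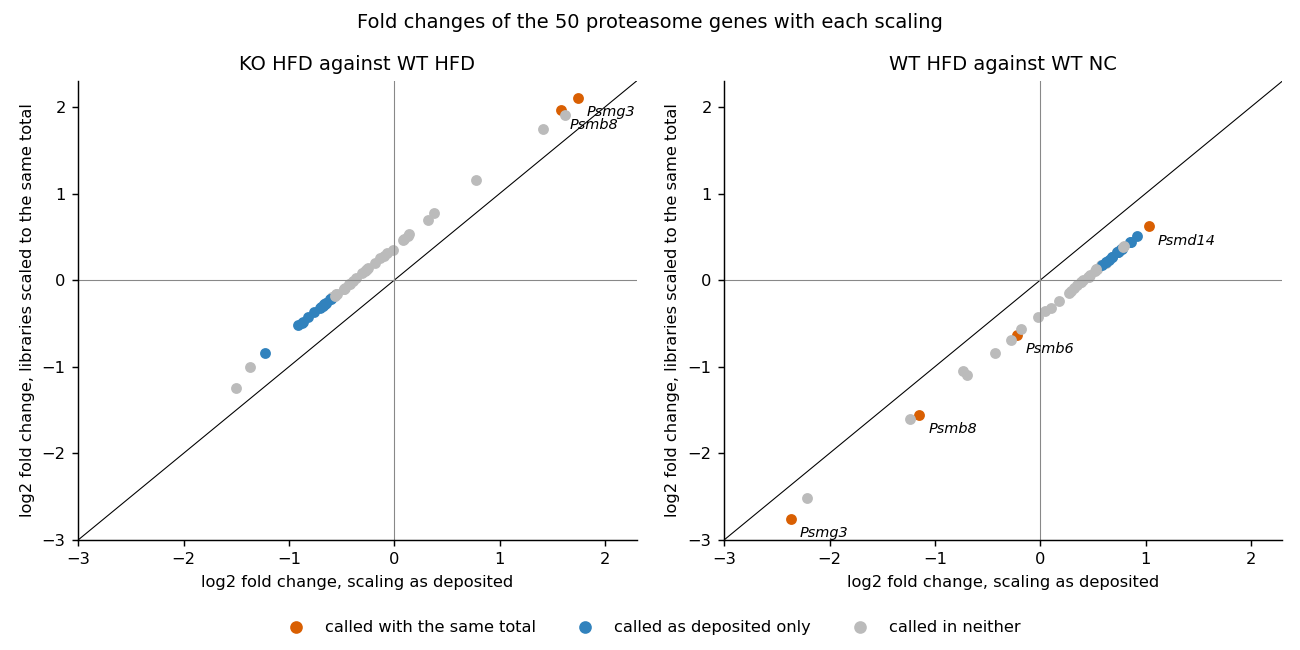
Log2 fold change of the 50 members as deposited (horizontal axis) and with libraries scaled to the same total (vertical axis) for KO HFD against WT HFD and WT HFD against WT NC; the diagonal marks equal values and colours mark the calls. Points lie above the diagonal on the left and below it on the right, Psmb8 moves from 1.58 to 1.96 and from -1.15 to -1.56, and the member median moves from -0.45 to -0.06 and from 0.53 to 0.12.

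Between WT HFD and KO HFD 15.1% of all genes fell, and adipocyte markers differed in the same direction as the 19S genes. Their sum over 10 markers was 525655 and 517012 in WT HFD, 280532 and 147085 in KO HFD, 290957 and 298274 in WT NC, and 251376 and 351299 in KO NC, and 9 of the 10 fell between WT HFD and KO HFD (7 with WT HFD counted as 1 averaged sample). As in the median of the 19S ATPases, the WT HFD libraries were highest and the second KO HFD library was lowest. The part of the adipocyte share of the RNA in the proteasome values was not tested.

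On NC, no member was called between KO and WT, in either direction, in limma's test, where 4.71% of all genes were called, and 8 members had an unadjusted p under 0.05, all with positive values, against 17.0% of all genes at that limit. The values nonetheless leaned upward. Of the 50 members 44 had positive values, with a median of 0.28 against -0.01 over all genes. Both KO NC libraries lay above both WT NC libraries in 29 members, against 22.8% of all genes, and below them in 3, against 22.2%. The highest values among members with a mean of at least 50 were those of Psmb5 (0.79, SE 0.28, adjusted p = 0.15) and Psma1 (0.63, SE 0.23, adjusted p = 0.16). Psme2 had 576 and 582 normalized counts in WT NC and 741 and 748 in KO NC (0.36, SE 0.19, adjusted p = 0.37), and Psmb9 had 149 and 141 against 167 and 163 (0.19, SE 0.31, adjusted p = 0.83). With the same total the member median was 0.23 and none was called (4.4% of all genes), while 9 had an unadjusted p under 0.05 (16.7%). Without either KO HFD library, which share in the estimate of the spread, 1 member was called (5.39% and 5.44% of all genes).

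In WT mice HFD was compared with NC. With the scaling as deposited, 10 of the 17 members of the 19S cap rose on HFD, and Psmb8 and Psmg3 fell. The median log2 fold change was 0.29 over the 5 immunoproteasome subunits and 0.54 over the other 45 (-0.12 and 0.13 with the same total). Of the 50 members 16 rose (8.74% of all genes) and 2 fell (9.22% of all genes). Both WT HFD libraries lay above both WT NC libraries in 35 members (against 31.4% of all genes) and below them in 6 (against 33.6%). Psmd14 rose most among members with a mean of at least 50, by 1.03 (SE 0.19, adjusted p = 0.0041), from 732 and 952 to 1594 and 1824 normalized counts. Psmc2 (0.92), Psmd1 (0.86), Psmc4 (0.85), Psme4 (0.78), Psmd2 (0.77), Psmc6 (0.75), Psmc1 (0.74), Psma4 (0.74) and Psmd6 (0.73) followed.

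By role, 5 of the 6 ATPases rose, 5 of the 11 other 19S subunits, 2 of the 7 alpha subunits (Psma4 and Psma6), 1 structural beta subunit (Psmb1, 0.68), the chaperone Psmd5 (0.68) and the activators Psme3 (0.59) and Psme4. No constitutive catalytic subunit was called. Psmb5 stood at 0.75 (SE 0.28, adjusted p = 0.074), Psmb7 at 0.46 (SE 0.25, adjusted p = 0.22) and Psmb6 at -0.22 (SE 0.17, adjusted p = 0.40).

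Psmb8 fell by 1.15 on the log2 scale (SE 0.24, adjusted p = 0.0076), from 293 and 224 to 110 and 120 normalized counts. Psmb9 went from 149 and 141 to 97 and 118 without overlap and did not pass (-0.43, SE 0.31, adjusted p = 0.35). Psmb10 (0.39), Psme2 (0.35) and Psme1 (0.29) had positive values as deposited and -0.02, -0.06 and -0.12 with libraries scaled to the same total. Psmg3 fell by 2.37 (SE 0.60, adjusted p = 0.017), from 54 and 64 to 18 and 6 normalized counts. The summed macrophage markers were lower on HFD as well, 2780 and 2919 against 5722 and 5700, and their part in the Psmb8 values was not tested.

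In this contrast no member was called in limma's test with WT HFD counted as 1 averaged sample, where 2.87% of all genes were and 18 members had an unadjusted p under 0.05, against 22.1% of all genes. The adjusted p of Psmb8 was 0.072 and that of Psmd14 0.059. Psmb8 was also not called without the first or the second WT HFD library (adjusted p = 0.066 and 0.057) or without the first WT NC library (0.097). Without the second WT HFD or the first WT NC library no member was called, without the first WT HFD library 2 were and without the second WT NC library 5, against 3.34% to 7.45% of all genes in these 4 fits. With the same total 4 members were called (21.5% of all genes): Psmd14 rose (0.62, adjusted p = 0.028) and Psmb8, Psmb6 (-0.63, adjusted p = 0.014) and Psmg3 fell.

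In KO mice no member was called between HFD and NC in limma's test, against 1.07% of all genes, and 4 had an unadjusted p under 0.05, all with negative values, against 15.5% of all genes. The member median was -0.24, against 0.03 over all genes, and 0.01 without the second KO HFD library. Without the first KO HFD library 3 members were called lower, and 3.93% of all genes were called. Both KO HFD libraries lay below both KO NC libraries in 15 members, against 19.3% of all genes, and above them in 1, against 22.7%. Psmb8 had 372 and 318 normalized counts on NC and 382 and 311 on HFD (0.00, SE 0.24), and Psme1 had 1998 and 1689 against 1543 and 1479 (-0.28, SE 0.15, adjusted p = 0.40). Psmd14 had 1049 and 961 against 1043 and 792 (-0.14, SE 0.19, adjusted p = 0.77).

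The difference between the genotype effects on the diets was tested as an interaction (KO minus WT on HFD, less KO minus WT on NC). It was called in 14 members, positive in 1 (8.69% of all genes) and negative in 13 (8.73% of all genes). Psmb8 was the positive one (1.15, SE 0.34, adjusted p = 0.036). Psmc2 had the largest negative value among called members (-1.30, SE 0.27, adjusted p = 0.0094), and 4 of the 6 ATPases, 4 of the other 19S subunits, 2 alpha subunits, Psmb1, Psme4 and Psmd5 were the negative ones. Without 1 library the count was 27 (first KO HFD), 5 (second KO HFD), 16 (first KO NC), 4 (second KO NC), 1 (second WT HFD), 6 (second WT NC) and 0 (first WT HFD or first WT NC), against 2.82% to 22.6% of all genes. Psmb8 with a positive and Psmc2 with a negative value were the 2 members called with the same total (17.2% of all genes). The Psmb8 term was called in 5 of 16 alternatives and the Psmc2 term in 13. With WT HFD counted as 1 averaged sample none was called in limma's test (2.75% of all genes) and 22 members had an unadjusted p under 0.05 (25.3%), and the adjusted p of Psmb8 was 0.11 and that of Psmc2 0.06.

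The groups of subunits can be read side by side in each library. Relative to the mean of WT NC, the median of the 19S ATPases was 0.77 and 0.73 in the WT HFD libraries, 0.12 and 0.48 in KO NC, and 0.22 and -0.16 in KO HFD. The 7 alpha subunits followed the same order with 0.59 and 0.55, 0.26 and 0.31, and 0.27 and -0.24. The median of the 3 immunoproteasome catalytic subunits stood lower in WT HFD than in the other groups, while Psmb10 on its own was not lower there than in WT NC (203 and 268 against 194 and 163 normalized counts), with -0.57 and -0.29 in WT HFD, 0.27 and 0.31 in KO NC, and 0.53 and 0.28 in KO HFD. Over all genes these medians stayed between -0.05 and 0.02.

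**Figure D5:**
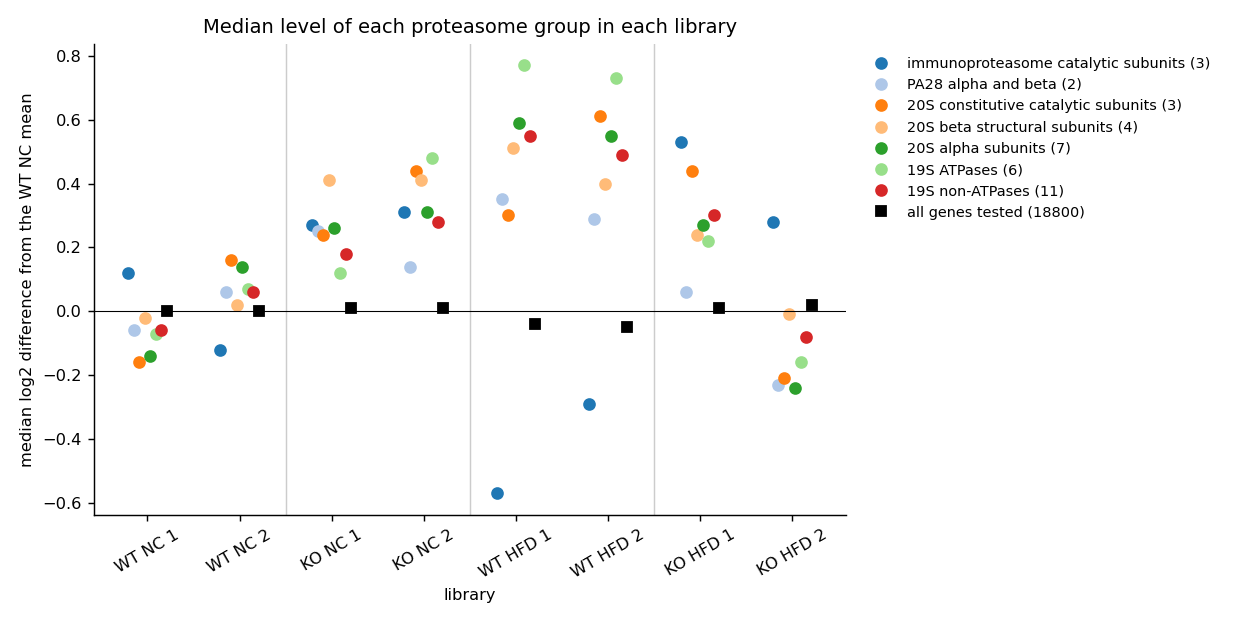
Median log2 difference from the WT NC mean (vertical axis) of each group of proteasome genes in each of the 8 libraries, scaling as deposited, with the number of genes in brackets; black squares are all 18800 genes. In the WT HFD libraries the constitutive groups lie between 0.30 and 0.77 and the immunoproteasome catalytic subunits at -0.57 and -0.29.

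Levels between genes were compared per kb of the longest principal transcript. In WT NC the most abundant members were Psme1 with 1625.9 normalized counts per kb, Psmb6 with 1607.1 and Psmd4 with 1552.9. Psmb8 had 158.8, Psmb10 136.2 and Psmb9 107.2, against 183.0 for Psmb5, 313.4 for Psmb7 and 1607.1 for Psmb6. By this length Psmb6 stood far above Psmb9, and Psmb8 close to Psmb5. Per kb of all exon bases of the gene, Psmb8 had 76.5 and Psmb5 183.0, so that closeness depended on the length used. By all exon bases the highest members were Psme1 (818.5), Psma6 (780.8) and Psmd4 (736.6), and Psmb6 had 685.1. In WT HFD Psmb8 had 70.6 per kb and Psmb5 307.6. The lowest members were Psma8, a germ cell subunit, and Psmb11, a subunit of the thymus, with 5.02 and 4.12 per kb in WT NC and 1 to 22 normalized counts in the 8 libraries. Psme2b and Psmc3ip were also low, with 3 to 37 and 8 to 39 normalized counts.

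Beyond the members, 24 genes of the pathway were measured: Adrm1 and Shfm1, which encode further subunits of the 19S cap, and assembly factors, ubiquitin shuttles and ligases, deubiquitinases and regulators of proteasome genes. Adrm1 (-0.58, adjusted p = 0.059) and Shfm1 (0.31, adjusted p = 0.20) were not called between KO HFD and WT HFD. Between KO HFD and WT HFD 7 of them fell (15.1% of all genes) and 1 rose (17.1%), and with libraries scaled to the same total 3 fell (7.27%) and 4 rose (24.6%). With WT HFD counted as 1 averaged sample 5 fell (8.14%) and 1 rose (10.2%), and Txnl1 and Ube3c were no longer called. Nfe2l1, the transcription factor that drives proteasome genes when the proteasome is limiting, had 16834 and 17242 normalized counts in WT HFD and 9948 and 7456 in KO HFD, against 10082 and 10116 in WT NC and 9893 and 13026 in KO NC. The WT HFD libraries were again highest (-0.98, adjusted p = 0.0014; 0.025 with the WT HFD libraries averaged). Ngly1, the glycanase needed for its activation, fell (-1.03, adjusted p = 0.0022), and Ddi2, the protease that cleaves it, did not pass (-0.07, adjusted p = 0.74). Ubqln2, a shuttle of ubiquitinated proteins, fell most (-1.66, adjusted p = 3.1e-05), from 1403 and 1298 to 377 and 482 normalized counts. Ubqln1 (-0.89), Ube3a (-0.75), Txnl1 (-0.67) and Ube3c (-0.66) fell, and Zfand2a, a stress-induced proteasome partner, rose (0.72, adjusted p = 0.0042). Pomp, the chaperone of 20S assembly, stayed under the fold limit (-0.57, adjusted p = 0.019). In WT mice on HFD against NC, 5 of the 24 rose (Ubqln2, Txnl1, Usp14, Nfe2l1 and Rad23b), against 8.74% of all genes, and none fell in limma's test, against 9.22%. An unadjusted p under 0.05 was found in 14, all with positive values, against 35.2% of all genes. Libraries scaled to the same total gave 1 that rose and 2 that fell (21.5% of all genes were called), and with WT HFD counted as 1 averaged sample 1 rose (2.87% of all genes were called).

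Of 14 genes that act with the immunoproteasome in antigen processing or regulate the interferon response, 13 were tested, and between KO HFD and WT HFD 3 fell (15.1% of all genes) and none rose (17.1%) in limma's test with the scaling as deposited. An unadjusted p under 0.05 was found in 6 of the 13, 2 of them with positive values, against 44.5% of all genes. With the same total 3 rose (24.6% of all genes) and 1 fell (7.27%), and with quantile normalization 2 rose and 1 fell (27.4% of all genes in either direction). With WT HFD counted as 1 averaged sample 2 fell (8.14%), and Tapbp was not called (adjusted p = 0.072). Relative to the median of all genes the median of the list was -0.14 as deposited, -0.13 with the same total and 0.19 with quantile normalization. B2m, the light chain of MHC class I, had 20665 and 20709 normalized counts in WT HFD and 10249 and 8585 in KO HFD (-1.14, adjusted p = 0.00013). Ifngr1 (-0.84) and Tapbp (-0.59) also fell. Tap1 (0.41, adjusted p = 0.094), H2-K1 (0.12) and Nlrc5 (0.14) did not pass with the scaling as deposited. In WT mice on HFD against NC, B2m (0.89, adjusted p = 0.0029), Tapbp (0.75, adjusted p = 0.0056) and Ifngr2 (0.74, adjusted p = 0.033) rose and 1 of the 13 fell, against 8.74% and 9.22% of all genes. Libraries scaled to the same total gave 6 that fell and none that rose in limma's test (21.5% of all genes were called, and 2 of the 13 had positive values with an unadjusted p under 0.05), and with WT HFD counted as 1 averaged sample only the 1 that fell was called (2.87%). That gene, Irf1, an interferon-induced factor, had 17033 and 13257 normalized counts in WT NC and 5293 and 5338 in WT HFD, and fell on HFD in WT mice (-1.50, adjusted p = 0.00028), with 6095 and 6382 in KO HFD (0.23 against WT HFD, adjusted p = 0.33). Ifng itself was at 0 in 5 of the 8 libraries and reached at most 4 normalized counts, where a count of 0 allows up to 3 reads.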

How the data were processed

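RNA of epididymal adipocytes was measured in 8 libraries, 2 for each combination of genotype and diet. The deposited table holds a score per gene and library: the authors trimmed the reads, aligned them to GRCm38 with STAR 2.5.2b, counted them per gene with featureCounts 1.5.1, scaled each library by 1 size factor and rounded the result (DESeq2 1.14.1 is named in the submitters' processing notes). The method of the size factors and the strand setting of the counting are not given in the sources used here. These values are called normalized counts. Rounding keeps the original counts from being recovered, so no count model was run. Genes whose mean over all 8 libraries reached 5 (18800 of 30387) entered 1 limma fit (limma 3.58.1, R 4.3.3, moderated with the trend over the mean) on log2(value + 1), with 4 group means, 4 residual and 8.59 prior degrees of freedom. Fold changes are on that log2(value + 1) scale, which understates the change of low genes. P-values were adjusted by Benjamini-Hochberg over all genes of a comparison, and a call needed an adjusted p of at most 0.05 and an absolute log2 fold change of at least 0.59. Tables were made in Python 3.11.15. The fit was tested on simulated counts whose spread was set by a formula and not measured in these libraries. It called 35 of 100 genes changed by 1 on the log2 scale and 84 of 100 changed by 2, with 5 false calls.

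Alternatives were the WT HFD libraries averaged to 1 sample, libraries scaled to the same total, quantile normalization, other filters and pseudocount, only the groups compared, a trend over GC content and exon length taken out (18750 genes with both), a replicate block and each library left out. The genes named are the immunoproteasome subunits and their counterparts, the called members up to the 10 with the largest change at a mean of at least 50, members moving opposite to the rest of their role, low members and the fixed lists. Further called members and those with a value just under a limit were named after their values were seen. The members and lists were chosen with earlier results of these data known. Symbols were matched to GENCODE vM21 for exon length and overlap (30259 of 30387 identifiers), and to RefSeq for promoters.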

Additional observations from a re-analysis of the deposited data

Results flagged for a closer look

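The genotype effect differed between the diets, by the interaction term of the limma fit adjusted over all genes, in 14 members, where 17.4% of all genes were called. The term is the KO minus WT difference on HFD less that on NC, on the log2 scale. It was positive for Psmb8, at 1.15 (adjusted p = 0.036). Among 19S ATPases it was -1.30 for Psmc2 (adjusted p = 0.0094), -1.15 for Psmc1 (0.020), -1.13 for Psmc4 (0.028) and -0.91 for Psmc6 (0.018). Among the other subunits of the cap it was -1.17 for Psmd14 (adjusted p = 0.014), -1.02 for Psmd1 (0.019), -0.97 for Psmd6 (0.020) and -0.95 for Psmd2 (0.033). In the 20S core it was -1.08 for Psma4 (adjusted p = 0.017), -1.03 for Psmb1 (0.011) and -0.87 for Psma6 (0.047). The chaperone Psmd5 stood at -1.16 (adjusted p = 0.020) and the activator Psme4 at -0.93 (0.021). With WT HFD counted as 1 averaged sample none of the 14 was called. Only Psmb8 and Psmc2 of the 14 were called with the same total (17.2% of all genes), and without a filter on low values 2 members were called (2.37%).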

How the results depend on the processing

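The values rest on 2 libraries a group. Shares of all genes called in either direction stand in brackets. In the genotype comparison on HFD 17 members were called (32.2%), against 3 with the WT HFD libraries averaged (18.3%), 2 with the same total (31.8%), 10 without a filter on low values (16.5%), 10 with only the groups compared (29.0%) and 7 with quantile normalization (27.4%). In WT mice the diet count of 18 became 0 (2.87%) with averaging, 4 (21.5%) with the same total, 8 (5.6%) without a filter and 4 (11.6%) with quantile normalization. The interaction count of 14 (17.4%) became 25 (17.9%) with the GC and length trend taken out, 0 (2.75%) with averaging, 2 (17.2%) with the same total, 2 (2.37%) without a filter and 6 (11.8%) with quantile normalization. Leaving out 1 library gave 3 to 23 on HFD (19.3% to 34.0%), 0 to 1 on NC (2.03% to 5.44%), 0 to 21 for diet in WT (3.34% to 20.6%), 0 to 3 for diet in KO (0.0745% to 5.11%) and 0 to 27 for the interaction (2.82% to 22.6%). The cause of these shifts was not tested.

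For the members followed under each alternative (the called ones and the immunoproteasome subunits), signs turned in 18 values and in 4 of a ratio, and none of the turned values was called. With the same total, signs turned in 11 of all 50 members on HFD and in 10 for diet in WT. With the GC and length trend taken out, Psmb10 was -0.27 on HFD, Psmb8 -0.08 in the KO diet comparison and Psmb9 -0.04 in the interaction. With the same total, Psme2 was 0.12 on HFD, Psme1 was -0.02 on NC (also -0.02 with quantile normalization), and in the WT diet comparison Psmb10 was -0.02, Psme1 -0.12 and Psme2 -0.06. With 1 library left out, Psmb10 ranged from -0.12 to 0.28 on HFD and from -0.31 to 0.20 for diet in KO, Psme1 from -0.09 to 0.15 on NC, Psmb8 from -0.14 to 0.15 and Psmb9 from -0.62 to 0.15 for diet in KO, Psmb9 from -0.19 to 0.58 in the interaction, and the Psmb9 to Psmb6 ratio from -0.08 to 0.17.

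Replicate numbers did not pair the libraries, since deviations of same-numbered libraries correlated between -0.107 and 0.0397 over 18800 genes. With a replicate block 15 members were called on HFD (30.4% of all genes), 13 for diet in WT (15.6%), 12 in the interaction (13.7%) and 0 in the other comparisons.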

Other observations

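The genes whose pattern over the 8 libraries was closest to the mean standardized log2 level of Psmb8, Psmb9 and Psmb10 were listed among 12049 genes whose mean reached 50, with the proteasome genes left out. The highest Pearson correlations belonged to Zswim8 (0.958), Mettl13 (0.953), Eif5a2 (0.948) and Zfp704 (0.94). Gm4841 and 1700017B05Rik (0.936 each), Chaf1a (0.933), Gm5970 and Gm44270 (0.929 each) and Ikbkb (0.923) followed. The 8 points share their library scaling and their groups, and the values describe these libraries only.

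Cells other than macrophages and leukocytes also differed in their markers between the groups. The 5 fibroblast or progenitor markers summed to 7925 and 8177 in WT HFD, 31648 and 35688 in KO HFD, 13744 and 11962 in WT NC and 18118 and 10385 in KO NC, and 3 of the 5 rose between WT HFD and KO HFD. As deposited, 17.1% of all genes rose in that comparison. The 5 endothelial markers summed to 13147 and 13756 in WT HFD and to 17525 and 27238 in KO HFD, where 2 rose. In limma's test 0 of the 5 were called with WT HFD counted as 1 averaged sample (2 had an unadjusted p under 0.05) or without the second KO HFD library, and 5 rose with the same total. The mesothelial markers summed to 167 to 673 in the 8 libraries. Their part in the proteasome values was not tested.

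Psmc3ip and Mlx share 21.2% of the exon bases of Psmc3ip on opposite strands. Psmd13 shares 10.1% of its exon bases with Sirt3 and Psmc3 shares 8.25% with Slc39a13. According to the methods, reads that overlapped several genes were not counted. Without a stated strand setting it is not known whether the reads of these bases were dropped or assigned by strand.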
